A study of Homo sapiens with 3 samples.

Results

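Lysosomal enzymes and the subunits of the proton pump that acidifies the lysosome were described in PANC-1, a human cell line established from a pancreatic carcinoma, after exposure to cantharidin or okadaic acid. The set was a fixed list of 43 genes, of which 42 had at least 1 probe matched by RefSeq accession, out of 19699 genes named on the arrays. CD63, a tetraspanin of lysosomes and late endosomes, was matched by no probe and is not analysed here. The 42 genes were covered by 50 probes. There were 3 one-colour arrays with total RNA labelled with Cy3, and each group was a single array. The control cells received no agent, the cantharidin cells received 20 µM cantharidin and the okadaic acid cells, by their own label, 20 µM okadaic acid, in each case for 24 h. Both agents inhibit protein phosphatase 2A (PP2A), and the arrays were made to compare gene expression under each of them with that of untreated cells.

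The lysosome is the acidic compartment in which cells break down proteins, sugars and lipids delivered by endocytosis or autophagy. Its soluble hydrolases are tagged with mannose 6-phosphate in the Golgi apparatus and work at low pH. That pH is set by the V-ATPase, a rotary pump whose V1 sector hydrolyses ATP in the cytosol and whose V0 sector carries protons through the membrane. Many genes of the compartment carry a CLEAR element, a short palindrome in the promoter that is read by TFEB, TFE3 and MITF, and pancreatic cancer cells are known for an active lysosomal programme.

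Signals are given as processed spot intensities, in scanner units before scaling. Folds and log2 differences are given after each array had been scaled to its 75th percentile, so a fold differs from the plain quotient of the intensities. These percentiles were 784, 713 and 936 for control, cantharidin and okadaic acid. The scaling can therefore move a gene across the threshold used here. A gene stood for its brightest probe, was compared where that probe exceeded background clearly on 1 or both of the arrays in question (the scanner's well-above-background flag), and was counted as higher or lower at 1.5-fold, the threshold of the study. With a single array per group, no difference has a replicate check and no test or p-value was computed. The spread between replicate spots within an array was small. Its median SD of log2 intensity was 0.05, 0.08 and 0.07 on the arrays of control, cantharidin and okadaic acid, over probes with replicate spots. Among the members, only NPC1, GUSB and ATP6AP2 had such spots, and each other member probe had 1 spot per array. Variation between cultures was not measured. The number of arrays therefore limits the precision of each value. All 5 markers of the line (KRT7, KRT8, KRT18, KRT19 and VIM) were well above background on each array. Their summed intensity, before scaling, was 456716 in control cells, 468585 under cantharidin and 505088 under okadaic acid. VIM was the largest part (311685, 304354 and 236756), and after scaling the markers diverged. Under cantharidin KRT8 was 2.25-fold lower and KRT18 1.99-fold higher. Under okadaic acid KRT19 and KRT18 were 2.59-fold and 2.29-fold higher, and KRT7 and VIM 1.67-fold and 1.57-fold lower. The others were within 1.5-fold. Macrophages are rich in lysosomes, and the 4 leukocyte markers with a probe, all well above background on each array, summed to 3104, 2397 and 11910 in the same order, most of the last being CD14 (intensity 11044). Among markers of other cells, 3 to 4 of 5 acinar ones were well above background (sums of 468 to 772) and 2 to 3 of 4 islet ones (1049 to 1177). So were 1 to 2 of 4 fibroblast ones (135 to 437) and 2 of 3 endothelial ones (1315 to 2261), with PECAM1 not above background on any array. Where a count varied, the higher one was that of the cantharidin array. PNLIP (8.73, 180 and 12.0 in the same order) and PDGFRB (17.5, 375 and 36.8) cleared background there alone. The labels name PANC-1 cells and no other cell type, so these signals are not read as the presence of other cells. The part of these markers in the values below was not tested. In bulk RNA, fewer cells of a type and less RNA per cell cannot be told apart.

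**Figure D1:**
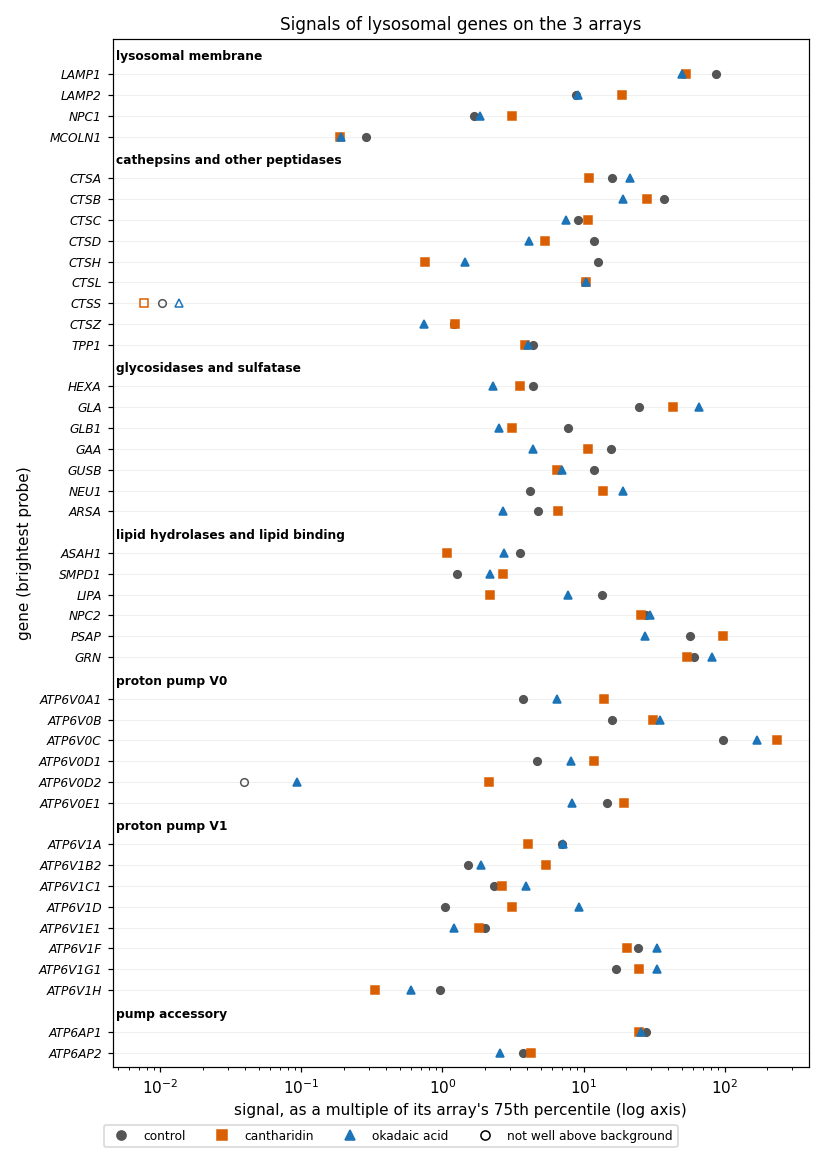
Signal of each gene on the 3 arrays, as a multiple of the array's 75th percentile on a log axis, with 1 row per gene and 1 symbol per array. Open symbols were not well above background, and ATP6V0D2 and CTSH show the widest separation of cantharidin from control; levels of different genes come from different probes and are not comparable.

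Under cantharidin, 41 of the 42 genes could be compared with control. Of these, 13 were at least 1.5-fold higher, or 31.7%, against 27.5% of all genes compared. Another 10 genes were at least 1.5-fold lower, or 24.4%, against 34.1% of all genes. The median log2 difference of the set was 0.02, beside -0.16 over all genes. Under okadaic acid, 11 genes were higher (26.8%, against 28.1% of all genes) and 15 were lower (36.6%, against 28.8%). The median was -0.12, beside 0.01 over all genes. The set as a whole thus stood near the background of these arrays, and the differences lay between its parts. Of the calls under okadaic acid, 42.3% were in the higher direction, and without scaling between arrays this share was 66.7%, because the median of all genes then moved from 0.01 to 0.26.

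The pump genes listed in the set and its other genes were unlike in their counts. The shares over all genes were 27.5% higher and 34.1% lower for cantharidin, and 28.1% and 28.8% for okadaic acid. The contrast is limited to the listed members, which were chosen with earlier results of these data known. Of 7 further pump subunits, 1 was higher and 4 were lower under cantharidin, and 1 was higher and 2 were lower under okadaic acid. With cantharidin, 7 of 16 pump genes (43.8%) were higher and 2 (12.5%) were lower, while 6 of 25 other genes (24.0%) were higher and 8 (32.0%) lower. Under okadaic acid, 8 of 16 pump genes (50%) were higher and 3 (18.8%) lower, while 3 of 25 other genes (12.0%) were higher and 12 (48.0%) lower. The pump genes had a median of 0.48 with cantharidin and 0.60 with okadaic acid. Over the other genes it was -0.20 and -0.58. These signs held under the 9 other scalings, filters and background corrections for which lists were recounted, in which the pump median ranged from 0.34 to 0.55 for cantharidin and from 0.40 to 0.86 for okadaic acid. The cantharidin and okadaic acid comparisons share the same control array, so a low or high control signal enters both.

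**Figure D2:**
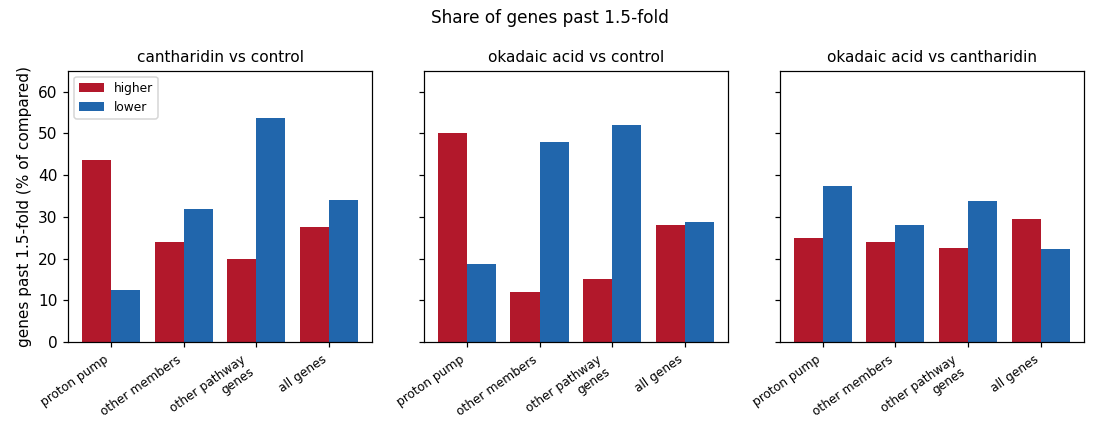
Share of compared genes at least 1.5-fold higher or lower, in percent, for the pump genes, the other genes of the set, a list of further lysosomal genes and all genes on the arrays. Against control, the pump genes of the set had more calls in the higher direction (43.8% and 50%) than in the lower one (12.5% and 18.8%). Further lysosomal genes, which include 7 other pump subunits, had more in the lower direction.

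Among the listed pump genes, most of those called higher lay in the V0 sector. Of the 6 listed V0 genes, 5 were higher under cantharidin (83.3%, against 27.5% of all genes) and none was lower (against 34.1%). Under okadaic acid, 5 of these genes were higher (83.3%, against 28.1%) and 1 was lower (16.7%, against 28.8%). Their median log2 difference from control was 1.31 with cantharidin and 0.81 with okadaic acid, and it stayed above 0 under each recounted alternative, from 1.17 to 1.42 and from 0.69 to 1.07. ATP6V0A1, the large subunit that lines the proton path, had intensities of 2899 in control cells, 9895 under cantharidin and 6111 under okadaic acid. It was 3.76-fold and 1.77-fold higher under the 2 agents. ATP6V0C, the proteolipid that forms most of the rotating ring, was among the brightest signals of the arrays, with 76398, 167473 and 159096, which amounted to 2.41-fold and 1.74-fold. ATP6V0B, another proteolipid of the ring, had 12452, 22117 and 32827, and was 1.95-fold and 2.21-fold higher. ATP6V0D1, the common form of the subunit that couples the ring to the central stalk, had 3674, 8477 and 7648, and was 2.54-fold and 1.74-fold higher. In these 4 genes both treated arrays lay above control, with okadaic acid above cantharidin for ATP6V0B alone.

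ATP6V0D2 showed the widest separation in the set. This gene encodes an alternative form of the d subunit, known from osteoclasts and kidney. Its intensity was 30.9 in control cells, where it was not well above background, 1516 under cantharidin and 87.2 under okadaic acid. The cantharidin signal was at least 47.7-fold above control and that of okadaic acid at least 2.09-fold, both as bounds against the control array's limit of detection, its dimmest signal that cleared background. The okadaic acid signal lay close to 58.0, the dimmest signal on that array to clear background. These bounds hold for the processed signal only, since with the normexp background correction the log2 difference was 3.70 for cantharidin and 0.34 for okadaic acid, the latter short of 1.5-fold. Between the agents, the okadaic acid signal was lower by 22.8-fold (-4.51 on the log2 scale, or -3.36 with normexp). ATP6V0E1, a small membrane subunit, was the exception among the listed V0 genes. Its intensities of 11484, 13869 and 7703 placed it 1.33-fold above control under cantharidin and 1.78-fold below it under okadaic acid, with a log2 difference of -0.58 without scaling.

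The listed V1 genes were mixed. Among these 8 genes, 2 were higher and 2 lower under cantharidin (25% each, against 27.5% and 34.1% of all genes). Under okadaic acid, 3 were higher and 2 lower (37.5% and 25%, against 28.1% and 28.8%), where the lower count was 0 without scaling. These counts stood near the background. ATP6V1D, a subunit of the central rotor, went furthest under okadaic acid. Its intensity was 812 in control cells, 2210 under cantharidin and 8745 under okadaic acid, or 3.00-fold and 9.02-fold higher. ATP6V1B2, the ubiquitous nucleotide-binding B subunit, had 1188, 3867 and 1742. It was 3.58-fold higher under cantharidin, while okadaic acid lay 1.23-fold from control. ATP6V1A, the catalytic subunit that pairs with it, went the other way under cantharidin, with 5506, 2893 and 6717. It was 1.73-fold lower there and within 1.02-fold of control under okadaic acid. ATP6V1H, a regulatory subunit, had 756, 237 and 559, and was 2.90-fold and 1.61-fold lower. The last of these values was -0.54 on the log2 scale with normexp and -0.44 without scaling, short of 1.5-fold in both.

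Of the remaining V1 genes, 2 were higher and 1 lower under okadaic acid and none passed 1.5-fold under cantharidin, apart from ATP6V1G1 in 3 alternatives. ATP6V1C1, which links the stalks to the membrane sector, had 1833, 1897 and 3658 and was 1.67-fold higher under okadaic acid, and its second probe gave 1.85-fold. ATP6V1G1, a peripheral stalk subunit, had 13316, 17775 and 31075, which was 1.47-fold above control with cantharidin, short of the threshold, and 1.96-fold higher with okadaic acid. Its partner in that stalk, ATP6V1E1, had 1572, 1296 and 1126 and was 1.67-fold lower under okadaic acid, or -0.48 on the log2 scale without scaling. ATP6V1F, the other rotor subunit, had 18981, 14583 and 31193, which left it within 1.5-fold of control under both agents, although its okadaic acid value was 0.72 on the log2 scale without scaling. The accessory proteins ATP6AP1 and ATP6AP2, which assist assembly of the pump, were also within 1.5-fold under both agents, with log2 differences between -0.55 and 0.18, although ATP6AP2 under okadaic acid was at -0.67 with scaling to the median. ATP6AP2 was measured in 10 spots per array, and the standard error of its differences from spot noise was 0.02 under cantharidin and 0.03 under okadaic acid.

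**Figure D3:**
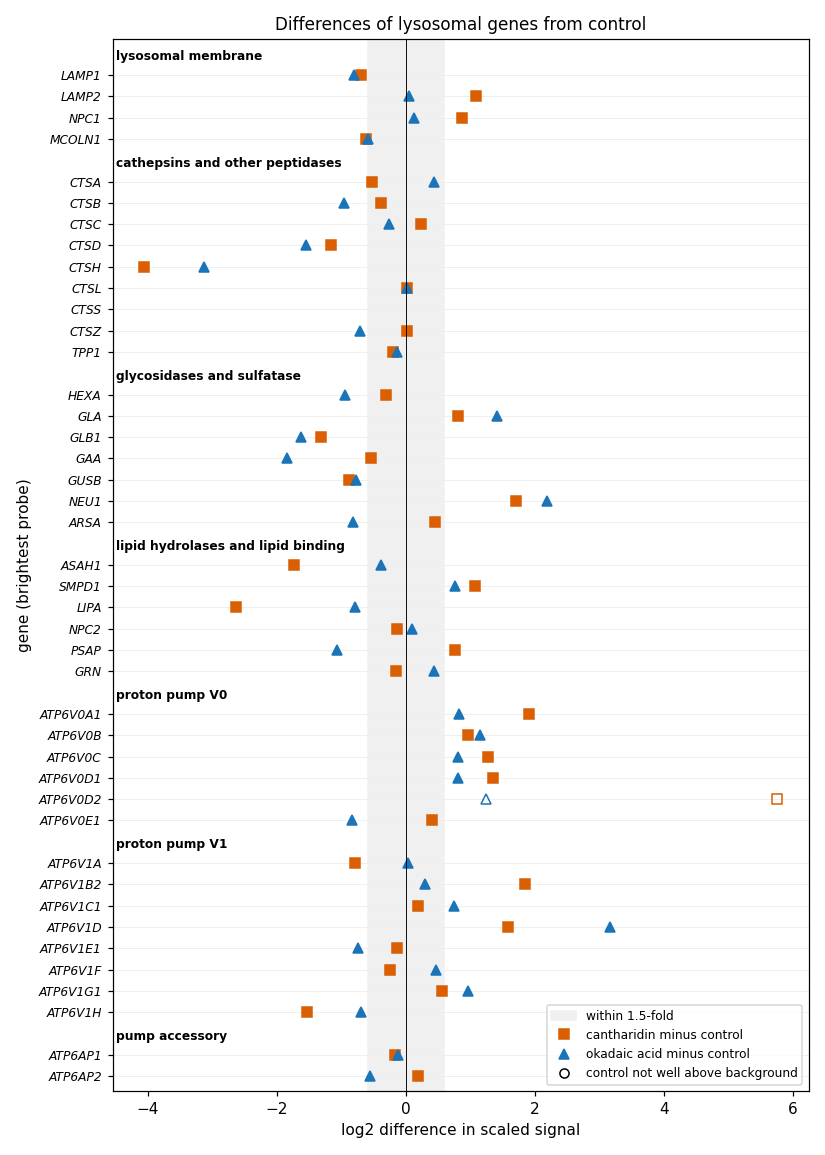
Log2 difference in scaled signal from control for each gene, with squares for cantharidin, triangles for okadaic acid and open symbols where the control was not well above background. The grey band marks differences under 1.5-fold, and most V0 genes lie to its right while CTSH (-4.06 and -3.13) lies farthest to its left.

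The promoters of the set were read for the CLEAR core. RefSeq windows of 250 bases before to 50 bases after a start were at hand for 30 of the 43 genes, in 42 windows. The 6 letters CACGTG were found in 10 of the 42 windows (23.8%), beside 7.26% of 35116 windows of the same length over all genes. The 8 letters TCACGTGA, which contain the first motif, were found in 6 (14.3%, beside 0.98%), and the 10-letter form with a G before and a C after these, in 3 (7.14%, beside 0.353%). Each motif reads the same on both strands. Genes with CACGTG in a window were ATP6V0B, ATP6V0D1, ATP6V1G1, NEU1, CTSA, CTSD, GAA, LAMP1, MCOLN1 and CD63, and LAMP1 held it at 6 places. ATP6V0A1 and ATP6V0C, higher under both agents, had none in their windows, and ATP6V0D2 had no window. The 250 bases before the start are shown for the 7 genes with the letters that passed 1.5-fold under okadaic acid, of which ATP6V0B, ATP6V0D1, ATP6V1G1 and NEU1 were higher and CTSD, GAA and LAMP1 lower. Bases are 5′ to 3′ on the strand of the gene in GRCh38.p14, and capitals mark CACGTG with the longer motifs around it.
ATP6V0B (chr1:43974710-43974959, plus strand): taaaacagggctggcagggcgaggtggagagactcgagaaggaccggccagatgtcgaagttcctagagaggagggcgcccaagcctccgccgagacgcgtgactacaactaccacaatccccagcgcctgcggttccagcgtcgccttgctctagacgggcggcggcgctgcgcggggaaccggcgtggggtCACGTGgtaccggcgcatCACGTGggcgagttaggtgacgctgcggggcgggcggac
ATP6V0D1 (chr16:67481158-67481407, minus strand): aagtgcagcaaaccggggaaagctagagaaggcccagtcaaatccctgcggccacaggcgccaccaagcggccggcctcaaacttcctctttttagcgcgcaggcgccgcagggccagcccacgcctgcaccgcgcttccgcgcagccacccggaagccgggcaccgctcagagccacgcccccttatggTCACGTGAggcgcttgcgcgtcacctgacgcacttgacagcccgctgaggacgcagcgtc
ATP6V1G1 (chr9:114587519-114587768, plus strand): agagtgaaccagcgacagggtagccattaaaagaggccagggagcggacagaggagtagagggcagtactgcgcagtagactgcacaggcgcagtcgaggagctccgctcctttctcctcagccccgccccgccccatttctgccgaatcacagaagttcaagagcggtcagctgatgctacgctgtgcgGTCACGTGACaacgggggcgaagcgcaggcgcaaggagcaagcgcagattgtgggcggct
NEU1 (chr6:31862822-31863071, minus strand): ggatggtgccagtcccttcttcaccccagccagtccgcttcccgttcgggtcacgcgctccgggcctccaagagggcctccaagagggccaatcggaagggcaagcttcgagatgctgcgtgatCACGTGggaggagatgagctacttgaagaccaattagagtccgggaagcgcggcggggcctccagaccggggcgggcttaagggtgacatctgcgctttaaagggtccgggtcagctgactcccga
CTSD (chr11:1763928-1764177, minus strand): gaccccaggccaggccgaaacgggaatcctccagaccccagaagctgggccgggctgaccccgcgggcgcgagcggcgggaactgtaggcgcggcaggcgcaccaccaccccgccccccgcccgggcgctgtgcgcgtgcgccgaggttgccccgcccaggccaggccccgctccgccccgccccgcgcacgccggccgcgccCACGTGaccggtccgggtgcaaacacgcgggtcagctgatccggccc
GAA (chr17:80101331-80101580, plus strand): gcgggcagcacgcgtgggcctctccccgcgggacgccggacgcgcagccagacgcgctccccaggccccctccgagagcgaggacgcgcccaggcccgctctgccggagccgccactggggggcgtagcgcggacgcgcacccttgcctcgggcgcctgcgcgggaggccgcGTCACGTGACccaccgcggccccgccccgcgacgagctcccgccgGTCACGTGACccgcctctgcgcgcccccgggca
LAMP1 (chr13:113296989-113297238, plus strand): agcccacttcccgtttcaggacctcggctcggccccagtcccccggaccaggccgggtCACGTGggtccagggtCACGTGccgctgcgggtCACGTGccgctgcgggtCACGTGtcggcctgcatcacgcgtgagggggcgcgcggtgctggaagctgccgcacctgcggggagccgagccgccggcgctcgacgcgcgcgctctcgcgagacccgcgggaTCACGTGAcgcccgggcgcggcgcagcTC
In ATP6V0B the letters begin 57 and 39 bases before the start, in ATP6V0D1 at 59 and in ATP6V1G1 at 58 bases. They begin at 126 bases in NEU1, at 47 in CTSD, and at 76 and 31 in GAA. In LAMP1 they begin between 192 and 1 bases before the start, and the last copy runs across it. The same letters thus stood in promoters of genes that were higher and of genes that were lower. A match is a description of the sequence, and binding was not measured.

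No peptidase was higher under either agent, except that CTSA passed 1.5-fold under okadaic acid without scaling (0.69 on the log2 scale). Of the 8 that could be compared, 2 were lower under cantharidin (25%, against 34.1% of all genes) and 4 under okadaic acid (50%, against 28.8%). The cantharidin count was 4 when a gene's probes were summarised by their median, and 3 with normexp or without scaling. The median log2 difference was -0.29 and -0.49, below 0 under each recounted alternative. CTSH, an aminopeptidase of the cathepsin family, had the largest differences in the lower direction. Its intensity was 9886 in control cells, 539 under cantharidin and 1352 under okadaic acid. These signals were 16.7-fold and 8.72-fold lower than control. CTSD, the main aspartic protease of the lysosome and one of the genes whose promoter is shown, had 9371, 3796 and 3838, and was 2.24-fold and 2.91-fold lower. For CTSB, an abundant cysteine protease, the intensities were 29197, 20240 and 17862, so okadaic acid left it 1.95-fold lower, and cantharidin was 1.31-fold below control. CTSZ, a carboxypeptidase, had 941, 870 and 688. It was 1.63-fold lower under okadaic acid, or -0.55 on the log2 scale with normexp and -0.45 without scaling.

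The remaining peptidases were not counted as changed on their brightest probes. CTSL, the cathepsin with strong endopeptidase activity, had intensities of 8008, 7384 and 9695, and after scaling both agents lay within 1.01-fold of control. TPP1, a tripeptidyl peptidase, had 3449, 2730 and 3754, with differences of at most 1.15-fold on either of its probes. CTSA, a carboxypeptidase that also stabilises other enzymes, had 12391, 7795 and 20033, or -0.53 and 0.44 on the log2 scale, and a second probe was 1.94-fold lower under cantharidin and -0.54 on the log2 scale under okadaic acid. The cantharidin value of CTSA passed 1.5-fold in 3 alternatives, down to -0.74. CTSS, a cathepsin of antigen-presenting cells, did not rise well above background anywhere, with intensities of 7.98, 5.46 and 12.6, and no fold is given.

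CTSC depended on the probe. This gene encodes dipeptidyl peptidase I, which activates granule proteases. Its brightest probe, annotated to NM_001114173, had 7123, 7614 and 7072 and differed from control by 1.18-fold and 1.20-fold. The probe annotated to NM_001814 had 3736, 886 and 1038, and was 3.83-fold lower with cantharidin, 4.30-fold with okadaic acid. A dimmer probe, annotated to NM_148170, had 393, 156 and 503, which was 2.29-fold lower under cantharidin and 1.07-fold above control under okadaic acid. Transcripts of 1 gene thus gave different values on different probes. Whether each probe reads its annotated transcript alone was not tested.

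LAMP2, a highly glycosylated protein of the lysosomal membrane, showed the same kind of disagreement. Its transcripts differ in the last exon and give the A, B and C forms, of which A serves as the receptor of chaperone-mediated autophagy. The brightest probe, annotated to NM_001122606, had 6957, 13453 and 8595, and was 2.13-fold higher under cantharidin and within 1.03-fold of control under okadaic acid. The probe annotated to NM_013995 had 2188, 2174 and 2755 and stayed within 1.09-fold of control. The third, annotated to NM_002294, had 409, 135 and 207, and was 2.75-fold and 2.36-fold lower. LAMP2 was the only gene of the set whose probes passed 1.5-fold in opposite directions in the same comparison, and its place among the genes higher under cantharidin rests on the brightest probe.

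**Figure D4:**
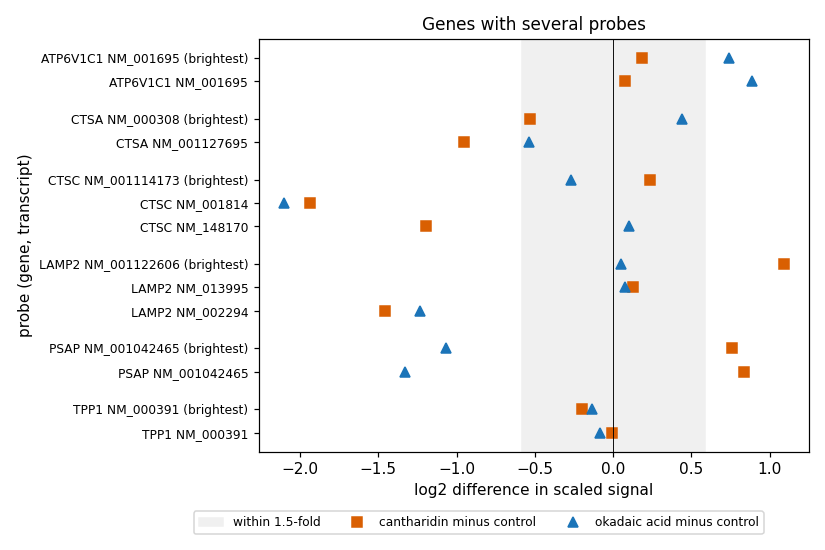
Log2 difference from control on each probe of the 6 genes with several probes, labelled by gene and annotated transcript, with squares for cantharidin and triangles for okadaic acid. Probes of ATP6V1C1, PSAP and TPP1 lie close together, while those of CTSC and LAMP2 span more than 2 log2 units under cantharidin.

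Among the other membrane proteins, LAMP1, the most abundant of them in many cells, had intensities of 68341, 38248 and 46621. It was 1.62-fold and 1.75-fold lower, the latter -0.55 on the log2 scale without scaling. NPC1, which exports cholesterol from the lysosome, had 1320, 2202 and 1724. It was 1.84-fold higher under cantharidin and within 1.09-fold of control under okadaic acid, with a standard error from its 10 spots per array of 0.03 and 0.02 on the log2 scale. MCOLN1, the calcium channel mucolipin 1, was dim, with 224, 133 and 179. It was 1.53-fold below control under cantharidin and 1.49-fold below under okadaic acid, and since these values lie next to the threshold they changed side in 3 alternatives each.

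Glycosidases and the sulfatase split by gene. Of 7 genes, 2 were higher and 2 lower under cantharidin (28.6% each, against 27.5% and 34.1% of all genes), so these counts stood near the background. Under okadaic acid, 2 were higher and 5 lower (28.6% and 71.4%, against 28.1% and 28.8%). NEU1, the sialidase, also among the promoters shown, had intensities of 3279 in control cells, 9742 under cantharidin and 17847 under okadaic acid. It was 3.27-fold and 4.56-fold higher. GLA, the alpha-galactosidase that is lost in Fabry disease, had 19252, 30597 and 61506, and was 1.75-fold and 2.68-fold higher. These were the only glycosidases of the set above 1.5-fold, and both were brightest under okadaic acid. GLB1, the beta-galactosidase also used as a stain for senescent cells, went the other way with 6093, 2219 and 2348, or 2.49-fold and 3.10-fold lower. GAA, which digests glycogen, had 12364, 7701 and 4104, and was 1.46-fold below control with cantharidin, short of the threshold except with normexp (-0.62) or without scaling (-0.68), and 3.60-fold lower with okadaic acid. GUSB, the beta-glucuronidase, had 9362, 4613 and 6564, and was 1.84-fold and 1.70-fold lower, with standard errors from 9 or 10 spots per array of 0.03 and 0.02 on the log2 scale. HEXA, a subunit of beta-hexosaminidase, had 3445, 2526 and 2139, and was 1.92-fold lower under okadaic acid. ARSA, the arylsulfatase, had 3746, 4677 and 2523, 1.37-fold above control under cantharidin but 1.77-fold lower under okadaic acid. Without scaling, the okadaic acid values of GUSB and ARSA were -0.51 and -0.57 on the log2 scale, short of 1.5-fold.

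In the lipid group, 2 genes were higher and 2 lower under cantharidin (33.3% each, against 27.5% and 34.1% of all genes). Under okadaic acid, 1 was higher and 2 were lower (16.7% and 33.3%, against 28.1% and 28.8%). PSAP, the precursor of the saposins that help hydrolases reach sphingolipids, had intensities of 44967 in control cells, 69182 under cantharidin and 25659 under okadaic acid. It was 1.69-fold higher under cantharidin but 2.09-fold lower under okadaic acid, and a second probe gave 1.79-fold higher and 2.51-fold lower. PSAP was the only gene of the set past 1.5-fold in opposite directions against control. The direct comparison put okadaic acid 3.54-fold below cantharidin. LIPA, the acid lipase that frees cholesterol and fatty acids, had 10543, 1552 and 7292, and was 6.17-fold and 1.73-fold lower, the latter -0.53 on the log2 scale without scaling. ASAH1, the acid ceramidase, had 2795, 762 and 2567, or 3.34-fold lower under cantharidin and 1.30-fold below control under okadaic acid. SMPD1, the acid sphingomyelinase that produces ceramide, had 1001, 1919 and 2021 and was 2.11-fold and 1.69-fold higher. NPC2, which hands cholesterol to NPC1, and GRN, the precursor of granulins, stayed within 1.5-fold of control under both agents in the main setting. GRN had 47542, 38667 and 76473, and its okadaic acid value of 0.43 passed the threshold in 3 alternatives.

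The labels state the same dose and time for both agents, and their arrays were also set against each other. The stated dose is high for okadaic acid, was taken as labelled, and could not be checked from the arrays, which bears on the direct comparison and on each okadaic acid value. At the 1.5-fold threshold, 10 of 41 genes were higher with okadaic acid than with cantharidin (24.4%, against 29.5% of all genes) and 13 were lower (31.7%, against 22.3%). The median was -0.11, beside 0.13 over all genes. Of these calls 43.5% were in the higher direction, and the share was 29.2% with scaling to the median and 63.6% without scaling, so the balance depended on the scaling. Among the listed V0 genes none was higher and 3 were lower, with a median of -0.82. Among the listed V1 genes 4 were higher and 2 lower, with a median of 0.63. The signs of these medians held under the recounted alternatives, with values from -0.97 to -0.42 for V0 and from 0.48 to 1.02 for V1. ATP6V1D was 3.01-fold higher under okadaic acid than under cantharidin, LIPA 3.58-fold and ASAH1 2.57-fold. ATP6V1B2 was 2.92-fold lower, GAA 2.47-fold, ARSA 2.44-fold and ATP6V0E1 2.37-fold lower.

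Further genes of the pathway were taken from a list of 86 that are no members of the set, of which 82 had a probe. Under cantharidin, 16 of 80 compared (20.0%) were higher and 43 (53.8%) lower, and under okadaic acid 12 of 79 (15.2%) were higher and 41 (51.9%) lower. The backgrounds are those given above, 27.5% higher and 34.1% lower for cantharidin, 28.1% and 28.8% for okadaic acid. Among 29 other hydrolases, 17 were lower under each agent, with medians of -0.87 and -0.74. SGSH, the heparan sulfamidase, had intensities of 1507, 248 and 149, or 5.53-fold and 12.1-fold lower. RNASET2, an acid ribonuclease, was 11.9-fold and 2.84-fold lower, NAGLU 5.56-fold and 9.80-fold, and FUCA1, the fucosidase, 7.99-fold lower under cantharidin and within 1.18-fold of control under okadaic acid. CTSK, a collagen-degrading cathepsin known from osteoclasts, went the other way, with 258, 2643 and 790, and was 11.3-fold and 2.56-fold higher.

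The machinery that delivers hydrolases to the lysosome was also lower in part. Of 10 sorting genes, 3 were higher and 6 lower under cantharidin (30% and 60%, against 27.5% and 34.1% of all genes). The 3 higher ones lay between 1.54-fold and 2.22-fold above control. Under okadaic acid, none was higher and 6 were lower (0% and 60%, against 28.1% and 28.8%), where 2 were higher without scaling. M6PR, the small mannose 6-phosphate receptor, had 4714, 1740 and 1433, and was 2.46-fold and 3.93-fold lower. NAGPA, which uncovers the mannose 6-phosphate tag, was 4.17-fold and 5.32-fold lower, and SORT1, an alternative sorting receptor, 13.8-fold and 2.56-fold lower. The SORT1 intensities were 660, 43.4 and 308. Its cantharidin signal was dim, at 1.98 times the lowest signal on that array to clear background. Subunits of the pump outside the set did not share the pattern of the V0 members. Of 7 compared, 1 was higher and 4 were lower under cantharidin (14.3% and 57.1%). Under okadaic acid, 1 was higher and 2 were lower (14.3% and 28.6%). These subunits belong to both sectors, and some of those lower under cantharidin were dim, with control intensities of 142 and 269. In the V0 sector, TCIRG1, the a3 subunit of the pump, was 2.16-fold higher under cantharidin and within 1.09-fold of control under okadaic acid. ATP6V0A4 was 1.78-fold lower under cantharidin and 1.43-fold below control under okadaic acid. ATP6V0E2, a second e subunit, was 7.62-fold and 3.29-fold lower. In the V1 sector, ATP6V1G2, a second G subunit, was 1.80-fold lower under cantharidin but 2.44-fold higher under okadaic acid.

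Transcripts of the regulators of the programme differed from each other. TFEB had intensities of 2712, 2661 and 2741, and lay within 1.08-fold and 1.18-fold of control. TFE3 had 4558, 10374 and 7268, 2.50-fold higher under cantharidin and 1.34-fold above control under okadaic acid. MITF had 697, 274 and 1098, which was 2.31-fold lower under cantharidin and 1.32-fold above control under okadaic acid. These factors are controlled largely by phosphorylation and location, which arrays do not measure.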

How the data were processed

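Gene expression of PANC-1 cells was measured on 3 Agilent one-colour arrays, 1 each for control, cantharidin and okadaic acid, grouped by sample title. The authors deposited processed spot intensity values from Feature Extraction 11.0.1.1, which per the file headers were background-subtracted and detrended within each array, together with other deposited values, namely 0 or 1 flags for outlier, saturated and well-measured spots. The deposited series table holds log2 values normalized by a method not given in the sources used here. Its columns tracked their own arrays (r from 0.998 upward) more closely than the others (0.937 or less), and their medians were 7.74, 7.74 and 7.75 for control, cantharidin and okadaic acid. Its centring is otherwise unknown, and it was an alternative. The 3 arrays shared 1 slide and 1 scan, so position on the slide cannot be told apart from the group.

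Spots with outlier flags were dropped, the log2 intensity of the rest was averaged per probe (34041 of 34127 probes kept), and each array's 75th percentile (intensities of 784, 713 and 936 in that order) was subtracted. No pseudocount was used. No transcript probe was saturated. Between 23071 and 25103 probes per array were well above background. Probes were named by unversioned RefSeq accession in GRCh38.p14, which named 25705 probes. The array annotation used hg19, so no array coordinates are given. A signal not well above background gave a bound, taken against the dim signal itself or, where this was higher, the array's lowest signal well above background (35.0, 21.9 and 58.0 in the same order). There was no replicate and no test. By rule, array values are given for members past 1.5-fold against control under either agent, past it in opposite directions under both agents, or with probes past it in opposite directions, and most other members are given as examples near control. Outside the set, TFEB, TFE3 and MITF were named, with at most 5 genes per list with the largest change measured on both arrays. The members and lists were chosen with earlier results of these data known. The counting was tested on simulated data. Alternatives are given at the end. Background correction and quantile normalization used limma 3.58.1 under R 4.3.3, and all else ran in Python 3.11.15 (pandas 2.3.3, numpy 2.4.6, matplotlib 3.10.9).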

Additional observations from a re-analysis of the deposited data

How the results depend on the processing

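The counts and medians of the set were recomputed under 11 alternatives, covering the background correction (normexp, offset 50), the scaling (by the median, by the 75th percentile of commonly detected probes, by quantiles, or none), the filter on dim probes (absent, or strict on all 3 arrays), dim signals raised to the floor, the deposited table, a 2-fold threshold and the median of a gene's probes. No value past 1.5-fold changed sign in any of them. Without scaling, the genes lower numbered 7 under okadaic acid and 8 for okadaic acid against cantharidin, and the medians were -0.12 under cantharidin, 0.13 under okadaic acid and 0.29 between the agents. This setting moved the median of all genes to -0.30, 0.26 and 0.52. Scaling to the median gave medians of -0.25 under okadaic acid and -0.26 between the agents, where that of all genes was -0.11 and -0.02. Under okadaic acid the median was -0.028 with quantile normalization and -0.030 with the deposited table. At 2-fold, 6 genes were lower under cantharidin, 5 were higher and 5 lower under okadaic acid, and 3 were higher and 8 lower between the agents. When a gene's probes were summarised by their median, the cantharidin median was -0.10, with LAMP2 at 0.13 and CTSC at -1.19. The cantharidin median, close to 0, was also -0.06 without the filter. The remaining counts and medians stayed within 1.5-fold or within the spot noise of a single difference. The causes of these shifts were not tested, apart from scaling by a single value per array, which moves all genes alike. Quantile normalization moves genes by different amounts. Dim genes limit the set to 1 that could not be compared (CTSS) and 1 given as a bound (ATP6V0D2). No paired analysis was possible because each group is a single array.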
